A study of Bos taurus with 6 samples.

Results

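The genes described here encode the machinery that licenses, fires and copies DNA replication origins in bovine (Bos taurus) oocytes: the origin recognition complex, the MCM and GINS proteins of the replicative helicase, the clamp and its loader, the single-strand binding protein RPA and the replicative polymerases. Members were the rows of the authors' table whose human ortholog symbol was 1 of 47 listed names. Of these names, 44 had a row, MCM4 had 2 rows, POLE3 had 2 and RPA2 had 5, which gave 50 rows of the 20707 in the table. No row carried the symbols MCM5, MCM9 or RFC1. The authors' annotation gives the names RFC1 and MCM9 to 2 rows that have no symbol (ENSBTAG00000014515 and ENSBTAG00000002059). Their values are given here as rows outside the member list.

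The study measured RNA of individual oocytes, each from cumulus-oocyte complexes of abattoir ovaries, at 2 stages with 3 libraries each. GV oocytes, with the germinal vesicle nucleus still intact and meiosis held in prophase, were taken at aspiration. MII oocytes, held at the second meiotic metaphase, were collected after maturation in culture over 24 hours, so stage and culture cannot be told apart. All 6 samples share 1 source label, that of oocytes matured in vitro, and the stage was taken from titles and column names. Animals, ages and breeds are not stated, nor whether oocytes of 1 group had different donors, and each p-value therefore rests on the spread between these libraries alone. Each library is called by its column name: GV14, GV14c, GV15, MII14c, MII15 and MII15c. GV14c and MII15c equal no sample title, and the meaning of the numbers and of the letter c is not given.

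Replication starts at origins bound by the origin recognition complex, ORC. With CDC6 and CDT1, ORC loads a ring of the 6 proteins MCM2 to MCM7 onto DNA, and geminin (GMNN) blocks this step by binding CDT1. The kinase CDC7 with its activator DBF4, and then CDC45 and GINS, turn the loaded ring into an active helicase. At the fork, the clamp loader RFC places the ring-shaped clamp PCNA, and polymerases alpha, delta and epsilon copy the strands. A fully grown oocyte replicates no DNA between its 2 meiotic divisions, and the stored mRNA serves the egg and the early embryo, which must replicate its genome within hours of fertilization.

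Depth, recovered from the low values, ranged from 20.2 to 29.92 M reads in GV and from 21.27 to 32.56 M reads in MII. Values are RPKM, reads scaled by the length of the gene model and the mapped reads of the library. They are shares of a library, so a lower value cannot tell less of an mRNA from more of others, and for a mixed sample fewer cells of a type from less RNA per cell. The cDNA kit (Clontech SMARTer Ultralow) primes on poly(A) tails, so tail length and transcript number cannot be told apart. All 12 oocyte marker rows passed the level tested, which averages both stages and so does not show each marker in each stage. FIGLA passed through its GV level, with means of 29.05 RPKM in GV and 0.4767 in MII. The summed levels of the 12 rows were 7083 to 10167 RPKM in GV and 3153 to 4069 in MII. In MII 8 of these rows were lower, 1 higher and 3 not called (limma, adjusted p under 0.05). Their median log2 change, MII minus GV, was -1.95. Of 22 rows for cumulus and granulosa markers, 11 stayed below 1 RPKM in every library, and LHCGR, AMHR2, NR5A1 and PTX3 were listed at 0 throughout. Their summed level was 137.4 to 209.8 RPKM in GV and 129.2 to 148.7 in MII. STAR and CD44 were lower in MII and HAS2 and VCAN higher (limma, adjusted p under 0.05), and the part of other cells in the results below was not tested. Blood and stroma markers summed to 0.464 to 2.084 RPKM over the 6 libraries.

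The comparison asks which replication mRNAs differed in measured level between the arrested and the matured oocyte. The 40 member rows with a mean of at least 1 RPKM were tested together with all 8671 rows that passed that level, with limma on log2(RPKM + 1) and Benjamini-Hochberg adjustment over all of them. In MII, 11 members were lower and 7 higher at an adjusted p under 0.05, and 22 did not pass. Over all tested genes 40.3% were called, 26.9% lower and 13.4% higher, so the 27.5% of members that fell is close to the background, and 17.5% rose. The median log2 change, MII minus GV throughout, was 0.21 for the members and -0.16 for all tested genes. Every MII library lay below every GV library in 14 members (35%, against 32.1% of all tested genes) and above in 11 (27.5%, against 19.8%). The other 10 rows, below the level tested, were CDT1, CDC45, POLA2, POLD1, POLE, 4 of the 5 RPA2 rows and 1 of the 2 POLE3 rows.

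**Figure D1:**
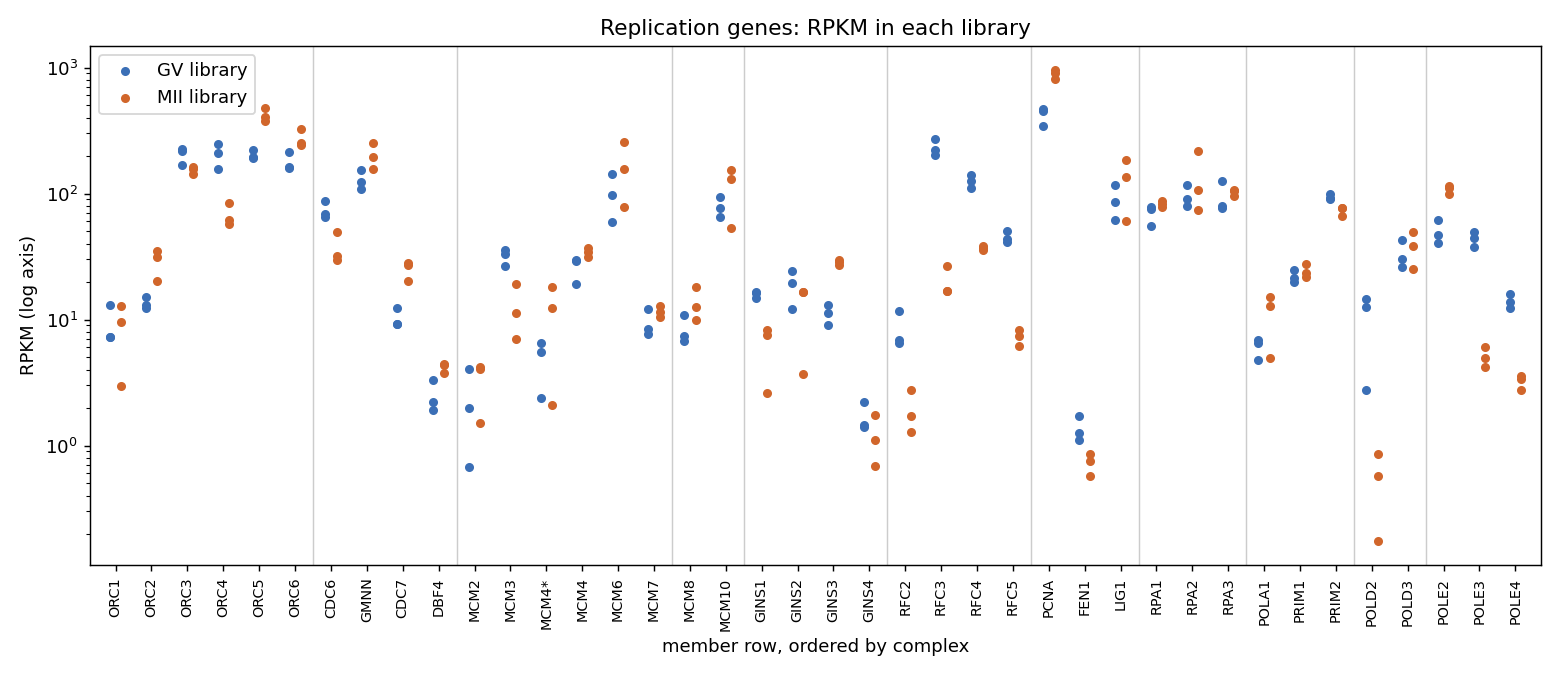
RPKM of the 40 tested member rows in the 3 GV (blue) and 3 MII (orange) libraries on a log axis, one point per library, with grey lines between complexes; MCM4* is the second MCM4 row, on chromosome 27. The RFC rows stand lower in every MII library, PCNA higher, and several MCM rows overlap.

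The calls followed the complexes unevenly. The 4 RFC rows were all lower in MII, whereas subunits of ORC, GINS and polymerase epsilon were called in both directions. The RPA rows and those of polymerase alpha and primase did not pass, and of the 6 MCM2 to MCM7 rows 1 did. Of the 18 called members, 11 kept the call under all 18 processing alternatives: ORC4, ORC5, GINS3, RFC2, RFC3, RFC4, RFC5, PCNA, POLE2, POLE3 and POLE4.

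**Figure D2:**
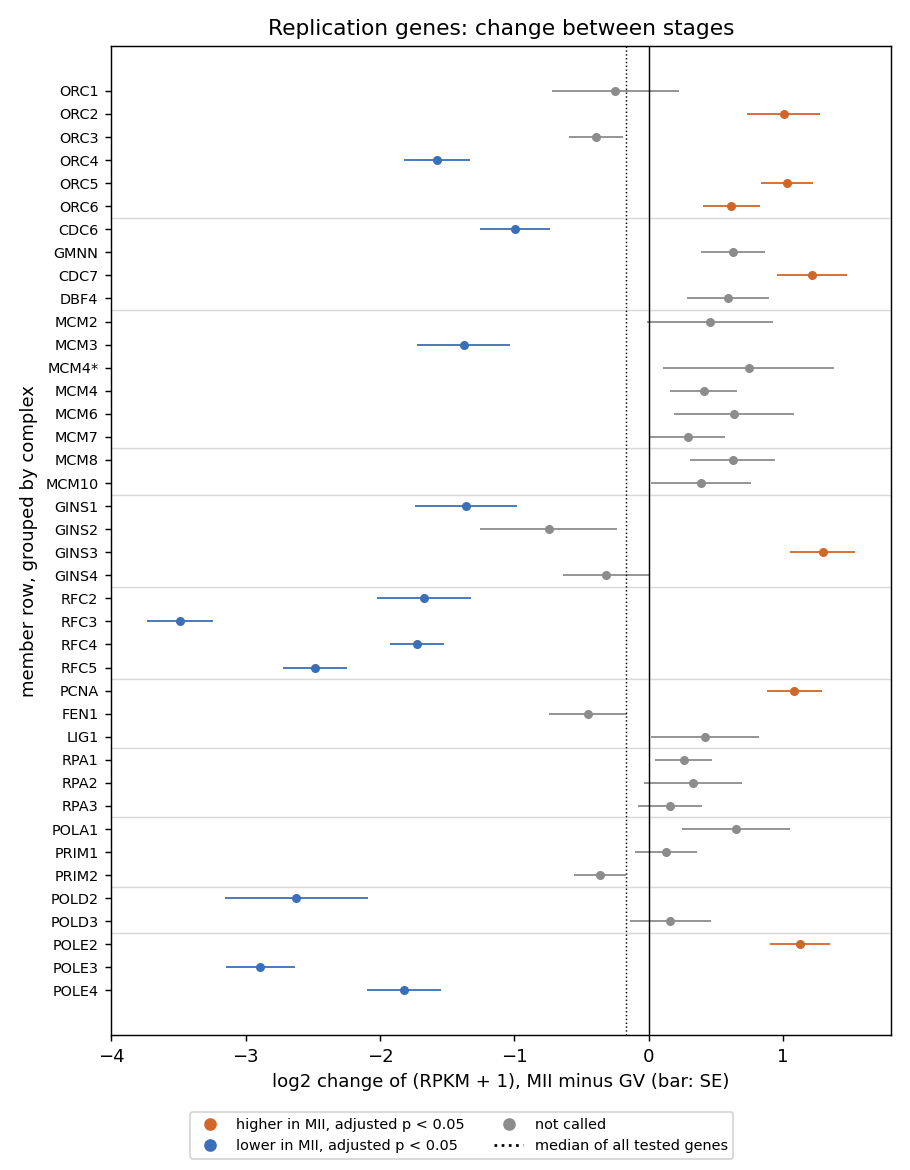
Log2 change of RPKM + 1 between the stages, MII minus GV, with its standard error, for the 40 tested member rows in the order of their complexes; orange and blue mark limma adjusted p under 0.05. RFC2 to RFC5, POLD2, POLE3 and POLE4 lie farthest to the left, and no member rose by more than 1.29 on the log2 scale.

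All 4 clamp loader members fell, and RFC3 fell most of all members. RFC3, a small subunit of the loader (chromosome 12, coding region 27400164 to 27417146, 9 coding exons), was at 221.7, 271.5 and 201.8 RPKM in GV14, GV14c and GV15 and at 26.52, 16.77 and 16.75 RPKM in MII14c, MII15 and MII15c. The stages were far apart, and the lowest GV library was several times the highest MII library. Mean levels were 231.6 ± 35.9 RPKM in GV and 20.01 ± 5.63 RPKM in MII (SD, n = 3), a log2 change of -3.49 with an SE of 0.25 (limma adjusted p = 2.75e-05). By mean RPKM it ranked 302 of all 20707 rows in GV and 2443 in MII. RFC5 was at 43.62, 41.29 and 50.69 RPKM in GV and 7.39, 8.311 and 6.188 in MII. The 3 libraries of each stage lay close together (log2 change -2.48 ± 0.24, SE; limma adjusted p = 0.000105). RFC4, which had the smallest spread between MII libraries of all tested members, was at 110.1, 140.6 and 126.6 RPKM in GV and 38.48, 37.29 and 35.81 in MII. All MII values were again below all GV values (-1.72 ± 0.20, SE; limma adjusted p = 0.000279). RFC2, the least abundant of the 4, was at 6.933, 6.56 and 11.63 RPKM in GV and 1.721, 2.783 and 1.281 in MII. GV15 and MII15 were the highest of their stages, and the stages did not overlap (-1.67 ± 0.35, SE; limma adjusted p = 0.00524).

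RFC2 to RFC5 are shared by several loaders, which differ in the large subunit that joins them: RFC1 for the PCNA loader, RAD17 for the checkpoint clamp, CHTF18 and ATAD5 for the others. The row that the annotation names RFC1 (chromosome 6, 60074995 to 60086403, with 10 coding exons) was at 56.88, 51.04 and 44.55 RPKM in GV and 63.72, 52.37 and 67.33 in MII. These values overlapped between the stages (log2 change 0.26 ± 0.21, SE; limma adjusted p = 0.363). The coding model of this row holds 1293 nt, and whether it covers the whole gene was not tested. RAD17 went from 121.3 ± 13.0 to 165.5 ± 29.6 RPKM and did not pass (limma adjusted p = 0.132). ATAD5 rose from 24.25 ± 7.40 to 45.7 ± 8.56 RPKM (0.92 ± 0.29, SE; limma adjusted p = 0.0313; 0.00261 to 0.23 over the alternatives), a call lost without GV14c, GV15, MII14c or MII15c. DSCC1, a partner of CHTF18, rose from 37.34 ± 6.69 to 70.97 ± 13.1 RPKM (0.91 ± 0.24, SE; limma adjusted p = 0.0145; 0.00021 to 0.154), a call lost without MII15c. CHTF8, the other partner of CHTF18, was at 4.007 ± 0.528 and 3.198 ± 1.55 RPKM, with overlapping stages and no call (limma adjusted p = 0.51). CHTF18 itself had no tested row. The ratio of RFC3 to RFC1 was 3.9, 5.32 and 4.53 in GV and 0.416, 0.32 and 0.249 in MII. That of RFC4 to RFC1 went from 1.94, 2.75 and 2.84 to 0.604, 0.712 and 0.532. Neither ratio overlapped between stages (exact two-sided permutation p = 0.1 for each, the smallest that 3 against 3 allows). These and the other ratios below, 8 in all, were chosen after the values were seen. Each had an exact p = 0.1, equal to the adjusted value over the 8, which does not account for that choice. Where a gene without overlap above GV was set over a gene without overlap below it, as for PCNA and RFC3, the ratio had to separate the stages. The same held for RFC3 and RFC4 over RFC1, because their gap between stages was wider, as a fold, than the whole range of RFC1.

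PCNA, the clamp itself, moved the other way. It was at 341.9, 453.7 and 471.8 RPKM in GV and at 808.4, 901.9 and 964.3 in MII (chromosome 13, coding region 47789608 to 47794478, 6 coding exons). Each MII library exceeded each GV library, and the means were 422.5 ± 70.3 and 891.5 ± 78.5 RPKM, a log2 change of 1.09 with an SE of 0.21 (limma adjusted p = 0.00344). PCNA was the most abundant member at both stages, at rank 127 of all rows in GV and 38 in MII. Per RPKM of RFC3 there were 1.54 to 2.34 of PCNA in GV and 30.5 to 57.6 in MII, a 25-fold shift of the geometric mean. FEN1, the nuclease that trims Okazaki fragments, was near the lower end of the tested range at 1.265, 1.729 and 1.105 RPKM in GV and 0.85, 0.75 and 0.574 in MII, and did not pass (limma adjusted p = 0.242). LIG1, the ligase that seals them, was at 86.37, 117.5 and 61.38 RPKM in GV and 183.9, 60.35 and 134.6 in MII. MII15 was below every GV library and the other 2 MII libraries above, and LIG1 did not pass (limma adjusted p = 0.441; 0.0492 without MII15; 0.0161 to 0.894 over the alternatives).

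ORC subunits, which assemble into one complex, split by direction. ORC5 (chromosome 4, coding region 45594957 to 45682157) was at 194.3, 192.7 and 222.1 RPKM in GV and 373.5, 476.9 and 402.0 in MII. Its level in MII was above every GV value (log2 change 1.03 ± 0.19, SE; limma adjusted p = 0.00317). ORC4 (chromosome 2, coding region 48326487 to 48377766) was at 209.9, 155.4 and 248.6 RPKM in GV and 61.37, 84.08 and 57.56 in MII. It fell without overlap (-1.58 ± 0.25, SE; limma adjusted p = 0.00137). In GV, ORC3, ORC4 and ORC5 had means of 204.8, 204.6 and 203.1 RPKM, which differed by less than their spread, with SDs of 31.3, 46.9 and 16.5. In MII the same 3 stood at 154.5 ± 9.62, 67.67 ± 14.3 and 417.5 ± 53.4 RPKM. The ratio of ORC5 to ORC4 went from 0.893 to 1.24 in GV libraries to 5.67 to 6.98 in MII libraries.

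ORC2 was at 15.04, 13.15 and 12.37 RPKM in GV and 34.86, 20.18 and 31.28 in MII. The stages did not overlap, with MII15 the lowest of its stage (log2 change 1.00 ± 0.27, SE; limma adjusted p = 0.0171; 0.000282 to 0.134 over the alternatives). The call was lost without GV15, MII14c or MII15c (limma adjusted p = 0.055, 0.0566 and 0.0737). ORC6 was at 162.3, 160.3 and 212.9 RPKM in GV and 244.6, 324.4 and 252.7 in MII. It barely passed although the stages did not overlap (0.62 ± 0.21, SE; limma adjusted p = 0.0458; 0.00581 to 0.194). The call was lost under 10 of 18 alternatives, among them without GV14, GV14c, MII14c, MII15 or MII15c (0.135, 0.106, 0.0588, 0.103 and 0.0981) and with the replicate block on the numbers 14 and 15 (0.0919). ORC3 was at 218.9, 168.9 and 226.6 RPKM in GV and 162.3, 157.3 and 143.8 in MII, lower in each MII library, and did not pass (limma adjusted p = 0.147; 0.00501 to 0.617). ORC1, the subunit that varies most through the cell cycle in dividing cells, was at 7.324, 13.07 and 7.219 RPKM in GV and 12.7, 2.946 and 9.645 in MII. Its stages overlapped (limma adjusted p = 0.705), and its level in MII15 was the lowest of the 6.

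Licensing factors other than ORC ranged from abundant to barely detected. CDC6, which joins ORC to load the helicase, was at 68.75, 64.79 and 87.01 RPKM in GV and 49.65, 29.58 and 31.97 in MII. Each MII library was lower (log2 change -0.99 ± 0.26, SE; limma adjusted p = 0.0143; 0.000301 to 0.0852 over the alternatives), and the call was lost without GV15 or MII15c (0.056 and 0.0631). CDT1, its partner, was at 0.333, 1.271 and 0.352 RPKM in GV and 0.061, 0.045 and 0.088 in MII. These levels, below the one tested, were lower in each MII library. GMNN, the inhibitor of CDT1, was at 108.9, 124.1 and 152.4 RPKM in GV and 157.0, 250.7 and 193.7 in MII. It lay higher in every MII library and did not pass (0.63 ± 0.24, SE; limma adjusted p = 0.0625; 0.00326 to 0.232), but passed under 5 alternatives, among them without MII14c (0.0409). Per RPKM of CDC6 there were 1.58 to 1.92 RPKM of GMNN in GV and 3.16 to 8.48 in MII.

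Among firing factors, CDC7 was at 9.285, 9.219 and 12.37 RPKM in GV and 28.3, 20.39 and 27.11 in MII. The lowest MII library was well above the highest GV library (log2 change 1.22 ± 0.26, SE; limma adjusted p = 0.00572; 6.35e-05 to 0.0746 over the alternatives). Only leaving out GV14c and MII15c together, which keeps 2 libraries a stage, ended that call (0.0746). DBF4, which activates CDC7, was at 2.479 ± 0.746 RPKM in GV and 4.173 ± 0.362 in MII. It was higher in each MII library and did not pass (limma adjusted p = 0.154). CDC45, which completes the active helicase with GINS, was near or below 1 RPKM in all 6 libraries, from 0.303 in GV15 to 1.089 in GV14c.

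Of the ring that forms the helicase, MCM3 alone was called. It was at 35.89, 33.11 and 26.42 RPKM in GV and 19.02, 6.969 and 11.36 in MII (chromosome 23, coding region 24439486 to 24456276). The fall had no overlap (log2 change -1.38 ± 0.35, SE; limma adjusted p = 0.0124; 0.000175 to 0.0976 over the alternatives), and without GV14 the adjusted p was 0.0511. MCM6 was the most abundant of the ring at 143.1, 97.68 and 59.11 RPKM in GV and 257.3, 78.15 and 156.2 in MII. Its libraries spread widely within both stages and overlapped (limma adjusted p = 0.284; 0.0308 with the replicate block; 0.0308 to 0.7). In each library MCM6 exceeded MCM3, by 2.24 to 3.99 times in GV and 11.2 to 13.8 times in MII. MCM2, at 1.985, 4.064 and 0.678 RPKM in GV and 4.21, 1.504 and 4.033 in MII, was the lowest of the ring. MCM7 was at 9.407 ± 2.44 and 11.57 ± 1.18 RPKM. Although the ring holds 1 copy of each protein, the mRNA levels of its genes thus ranged over more than an order of magnitude.

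MCM4 had 2 rows. The row on chromosome 14 (ENSBTAG00000046325, 21165072 to 21192165, 31 coding segments) was at 28.88, 29.89 and 19.13 RPKM in GV and 31.34, 34.49 and 36.99 in MII. It was higher in each MII library and did not pass (log2 change 0.41 ± 0.25, SE; limma adjusted p = 0.217). The row on chromosome 27 (ENSBTAG00000017021, 41044136 to 41049315, 7 coding exons, with no MCM name in the annotation) was at 6.538, 5.501 and 2.391 RPKM in GV and 18.06, 2.095 and 12.3 in MII. MII15 was the lowest of the 6 libraries there, whereas on chromosome 14 it was the second highest, so the rows did not vary alike between libraries. Reads shared between rows of one symbol cannot be told apart in the table. MCM10, which helps to activate the helicase at the origin, was at 94.28, 76.14 and 64.67 RPKM in GV and 153.2, 53.39 and 129.3 in MII, and passed without MII15 only (limma adjusted p = 0.021 without it, 0.433 with all libraries) and with library weights (0.0273). MCM8, of a separate helicase with MCM9 that acts in recombination, had levels of 8.348 ± 2.21 and 13.55 ± 4.13 RPKM without a call (limma adjusted p = 0.143). The row the annotation names MCM9 had levels of 1.598 ± 0.149 and 1.917 ± 0.347 RPKM, also without a call (limma adjusted p = 0.683).

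GINS is a ring of 4 different subunits, and its genes moved apart. GINS3 (chromosome 18, coding region 26283109 to 26288168) was at 13.11, 11.23 and 8.994 RPKM in GV and 27.15, 28.71 and 29.47 in MII. The MII libraries lay within a narrow range above all GV libraries (log2 change 1.29 ± 0.24, SE; limma adjusted p = 0.00316). GINS1 was at 16.63, 14.91 and 16.12 RPKM in GV and 7.53, 2.605 and 8.219 in MII. It fell in every MII library and most in MII15 (-1.36 ± 0.38, SE; limma adjusted p = 0.0196; 0.00219 to 0.113 over the alternatives), a call lost without GV14 or GV15 (0.0661 and 0.0508). GINS2 was at 19.59, 24.35 and 12.11 RPKM in GV and 16.46, 3.725 and 16.64 in MII, with MII15 far below the rest (limma adjusted p = 0.277). GINS4 stayed low at 1.683 ± 0.449 and 1.182 ± 0.533 RPKM (limma adjusted p = 0.467). The ratio of GINS3 to GINS1 was 0.558 to 0.788 in GV and 3.59 to 11 in MII.

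Polymerase epsilon, which copies the leading strand, also split. POLE2, the subunit that anchors the polymerase to the helicase (chromosome 10, coding region 42715458 to 42747207), was at 40.66, 46.56 and 61.2 RPKM in GV and 110.3, 114.7 and 99.17 in MII. All MII values exceeded all GV values (log2 change 1.13 ± 0.22, SE; limma adjusted p = 0.00392). POLE3 and POLE4 form a histone-fold pair in the same holoenzyme, and POLE3 also serves in a chromatin remodeller. POLE3 (chromosome 8, coding region 104357862 to 104359026) was at 37.87, 49.23 and 44.42 RPKM in GV and 6.095, 4.174 and 4.937 in MII. It had the second steepest fall among the members (-2.89 ± 0.25, SE; limma adjusted p = 7.13e-05). POLE4 (chromosome 11, coding region 9683743 to 9694951) was at 15.8, 13.68 and 12.4 RPKM in GV and 3.546, 3.368 and 2.773 in MII. Its fall left no overlap either (-1.82 ± 0.27, SE; limma adjusted p = 0.00109). POLE, the catalytic subunit, had at most 1.75 RPKM in any library and was below the level tested. The ratio of POLE2 to POLE3 went from 0.946 to 1.38 in GV to 18.1 to 27.5 in MII, a 19.2-fold shift of the geometric mean.

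Polymerase delta, which copies the lagging strand, had its catalytic subunit as the lowest of its members in every library. In MII POLD2 stayed below 1 RPKM as well. POLD1, the catalytic subunit, was listed at 0 in 4 libraries and at 0.013 and 0.01 RPKM in GV14c and MII15c. Whether its gene model covers the whole gene was not tested. POLD2 was at 12.59, 14.64 and 2.753 RPKM in GV and 0.855, 0.174 and 0.57 in MII. GV15 stood apart from the other GV libraries but above all of MII, and POLD2 fell (log2 change -2.62 ± 0.53, SE; limma adjusted p = 0.00457; 7.67e-05 to 0.0691 over the alternatives). That call was lost with no filter on low values and without GV14c and MII15c together (0.0691 and 0.0551). POLD3, by contrast, was at 30.32, 42.71 and 26.08 RPKM in GV and 49.56, 25.02 and 38.56 in MII, with overlapping stages (limma adjusted p = 0.698). In each library POLD3 exceeded POLD2.

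Polymerase alpha and primase, which start each new strand, were not called. PRIM2, the large primase subunit, was the most abundant of them at 92.25, 90.06 and 99.64 RPKM in GV and 76.27, 76.78 and 66.29 in MII. Each MII library was lower, and the change did not pass (log2 change -0.36 ± 0.19, SE; limma adjusted p = 0.165; 0.0118 to 0.661 over the alternatives). PRIM1, which makes the RNA primer, was at 22.06 ± 2.51 and 24.23 ± 2.88 RPKM, a difference within the spread (limma adjusted p = 0.68). POLA1, the catalytic subunit of polymerase alpha, was at 6.898, 4.772 and 6.476 RPKM in GV and 12.88, 4.927 and 15.12 in MII. MII15 again fell among the GV values, and POLA1 passed without it (limma adjusted p = 0.0168; 0.227 with all libraries; 0.00331 to 0.765). POLA2 had at most 1.479 RPKM in any library.

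RPA, which coats single-stranded DNA, has 3 subunits, and all were measured above the level tested. RPA1 was at 69.57 ± 12.1 RPKM in GV and 82.77 ± 4.66 in MII, and RPA3 at 93.95 ± 27.6 and 102.3 ± 5.94. RPA2 was measured mainly in the row on chromosome 2 (ENSBTAG00000006225, 126031112 to 126054684), at 90.6, 79.56 and 117.1 RPKM in GV and 106.0, 216.2 and 73.4 in MII. MII15 was the highest library for RPA2 and MII15c the lowest. In GV the means of the 3 subunits differed by less than their summed SDs. In MII RPA3 exceeded RPA1 by more than their summed SDs. The SDs were smaller there, and the gap between the 2 means was not wider than in GV. RPA2 in MII, at 131.8 ± 74.8 RPKM, differed from neither by more than the summed SDs. The limma adjusted p-values between stages were 0.36, 0.506 and 0.631 for RPA1, RPA2 and RPA3. The other 4 RPA2 rows have no coding model in the annotation. Of these, 3 stayed at or below 0.13 RPKM and 1 reached 1.587.

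MII15 departed from the other MII libraries in some member rows, and in part of all tested genes. In 8 of the 40 tested rows its value of RPKM + 1 was at least 2-fold below both other MII libraries: ORC1, MCM2, MCM4 on chromosome 27, MCM10, GINS1, GINS2, LIG1 and POLA1. This is 20% of the members, against 10.4% of all tested genes. MII15 was the lowest MII library in 42.5% of members and in 56.5% of all tested genes, and also held the fewest genes at 1 RPKM or more (7170, against 7760 and 8087). Without it 10 members were higher and 11 lower in MII, in place of 7 and 11. The spread was otherwise modest, with a median SD on the log2(RPKM + 1) scale of 0.25 in GV and 0.31 in MII for members, against 0.33 and 0.37 for all tested genes.

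**Figure D3:**
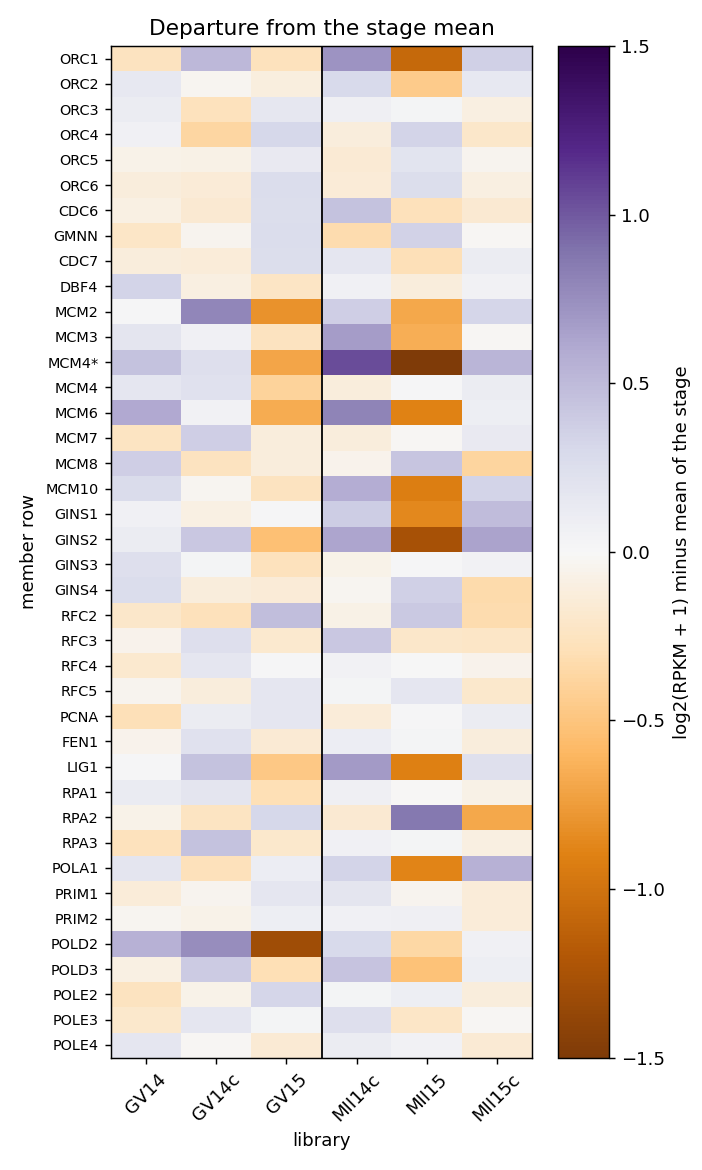
Departure of each library from its stage mean on the log2(RPKM + 1) scale for the 40 tested member rows, purple above and orange below the mean. Orange cells gather in MII15 for ORC1, MCM2, MCM4* (the row on chromosome 27), MCM6, MCM10, GINS1, GINS2, LIG1 and POLA1, and POLD2 is lowest in GV15.

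The number of member rows at 1 RPKM or more was 40, 45 and 39 in GV and 41, 38 and 38 in MII. The stages overlapped, and the difference between means of 41.33 ± 3.21 and 39 ± 1.73 was within the spread (SD, n = 3; exact two-sided permutation p = 0.5, smallest possible 0.1). The coding models of 45 member rows lay on 22 chromosomes. Median coding length was 1059 nt for the 11 members that fell, 1308 nt for the 7 that rose and 1936 nt for the 22 not called, against 945, 1530 and 1449 nt for all tested genes. Across the 40 members Spearman's rho of log2 change with coding length was 0.28 (Pearson's r with log2 length 0.31), and across 8469 tested genes with a coding model 0.29 (0.31). Genes are not independent replicates, all share the 6 libraries, and the values are a description.

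Other genes of the replication pathway were taken from 8 lists. Of their 89 tested rows, 28 rose (31.5%, against 13.4% of all tested genes) and 14 fell (15.7%, against 26.9%). Their median log2 change was 0.48, and that of all tested genes -0.16. Of 6 tested origin firing and fork assembly factors, 4 rose and 2 did not pass. MTBP, which acts with TICRR in origin firing, was at 4.065, 2.724 and 4.321 RPKM in GV and 12.47, 21.81 and 17.02 in MII. Every MII library was above every GV library (log2 change 1.93 ± 0.31, SE; limma adjusted p = 0.00155). WDHD1, which ties polymerase alpha to the helicase, rose from 29.7 ± 4.81 to 74.33 ± 8.0 RPKM (1.30 ± 0.22, SE; limma adjusted p = 0.00198), and MCMBP, an MCM-binding protein, from 8.48 ± 1.01 to 20.95 ± 5.12 RPKM (1.19 ± 0.27, SE; limma adjusted p = 0.00771). The count of 4 ranged from 3 to 6 when 1 library was left out. It was 2 without GV14c and MII15c together, the columns that match no title, and MCMBP then lost its call.

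Of 12 tested genes of fork protection and alternative clamp loaders, 7 rose and 1 fell, which became 2 higher without MII15c, 4 without GV14, GV14c or MII14c and 2 without a filter on low values. Without GV14c and MII15c together, 1 was higher and 1 lower. TIPIN, a fork protection protein, was at 79.08, 92.81 and 106.7 RPKM in GV and 248.1, 302.2 and 279.2 in MII. The rise left a wide gap between the stages (log2 change 1.57 ± 0.20, SE; limma adjusted p = 0.000504), whereas its partner TIMELESS, at 14.48 ± 4.38 and 10.05 ± 3.85 RPKM, was not called (0.276). RAD1 rose from 6.602 ± 0.709 to 15.91 ± 4.13 RPKM (1.13 ± 0.28, SE; limma adjusted p = 0.0124), while HUS1, which shares the checkpoint clamp with it, was at 42.28, 34.95 and 41.68 RPKM in GV and 3.72, 4.215 and 2.604 in MII. HUS1 was the gene of that list that fell (-3.18 ± 0.26, SE; limma adjusted p = 5.02e-05). The call of RAD1 was lost without GV14c and MII15c together, but its direction was kept. Subunits of this second clamp thus also differed in direction.

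**Figure D4:**
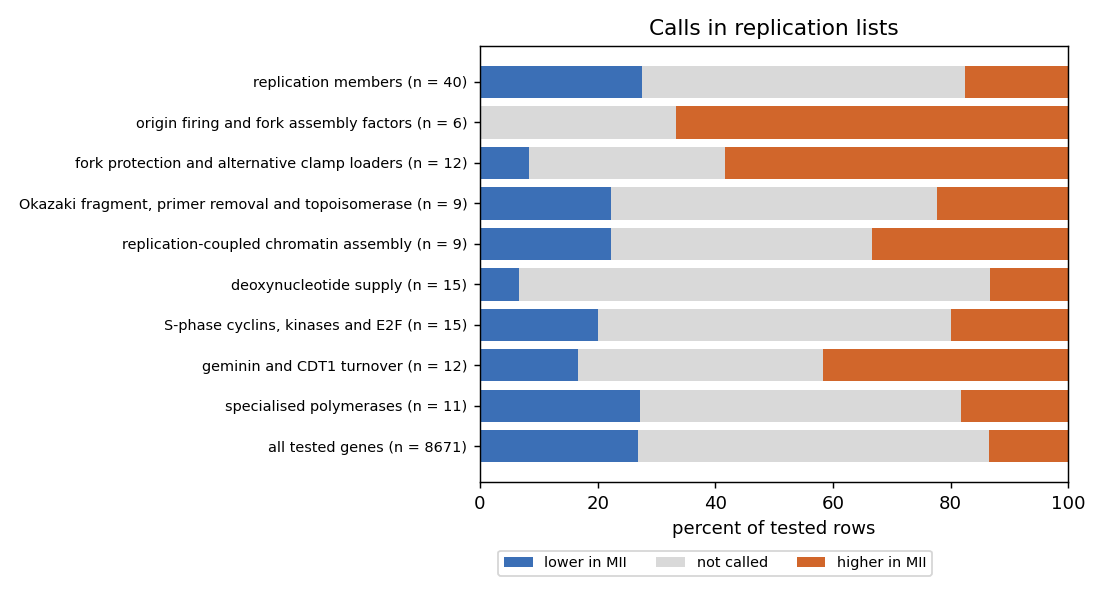
Percent of tested rows lower (blue), not called (grey) and higher (orange) in MII by limma at adjusted p under 0.05 for the replication members, 8 further pathway lists and all 8671 tested genes. Members were lower in 27.5% of rows, close to the 26.9% of all genes, and 4 of 6 origin firing factors were higher.

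In the remaining lists calls went both ways. For Okazaki fragment processing and topoisomerases, TOP2B and DNA2 rose (log2 changes 2.07 and 1.45) and RNASEH2A and RNASEH2C, subunits of the ribonuclease that removes RNA from DNA, fell (-2.02 and -2.61), with 5 of 9 not called. In chromatin assembly, UHRF1, RBBP4 and DNMT1 rose (1.64, 1.39 and 1.39) and the histone chaperones ASF1A and CHAF1A fell (-2.63 and -0.97), with 4 of 9 not called. The call of DNMT1 was lost without MII15c, and that of CHAF1A under 10 of 18 alternatives, among them quantile normalization and without GV14, GV14c, GV15, MII15 or MII15c. Of 15 tested rows of deoxynucleotide supply, DCK and RRM1, of nucleoside salvage and ribonucleotide reduction, rose (1.63 and 1.19), NME1 fell (-3.04), and 12 did not pass. NME2 has more than 1 row among those that did not pass. The 2 higher genes of that list became 4 without GV14c, 4 without MII15 and 5 with median-ratio or quantile scaling, and the 1 lower became 2 without MII14c. Without GV14c and MII15c together, RRM1 lost its call and 1 gene was higher.

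Among 15 S-phase cyclin, kinase and E2F genes, CCNA2, CCNE1 and E2F8 rose (log2 changes 1.33, 1.48 and 1.36), CDC25A, TFDP2 and E2F2 fell (-1.48, -1.03 and -1.17), and 9 did not pass. Without MII14c the call of E2F2 was lost, and without GV14 that of TFDP2, when 1 gene of the list was lower. Without GV14c and MII15c together, 1 was higher and 1 lower. CCNE1, E2F8, CDC25A and E2F2 then lost their calls. Of 12 rows for the turnover of geminin and CDT1, 5 rose and 2 fell, which became 2 higher and 1 lower without GV14, 3 and 2 without GV15 and 3 and 1 without MII15c. Without GV14c and MII15c together, 2 were higher and 1 lower. SKP2, the F-box protein that directs CDT1 to degradation, was at 8.074, 14.1 and 9.102 RPKM in GV and 44.92, 35.9 and 47.79 in MII (1.97 ± 0.27, SE; limma adjusted p = 0.000737). Its MII libraries lay well above those of GV. The abundant row of CUL1, the scaffold of the same ligase, rose as well (951.3 to 1976 RPKM, 1.09), and USP13 rose (0.90), the latter not without GV14. Neither kept its call without GV14c and MII15c together. The other tested CUL1 row, at 1.741 RPKM in GV and 2.325 in MII, overlapped and was not called (limma adjusted p = 0.862). Both falls were rows with the symbol SENP8 (-1.24 and -1.16), the second lost without GV14, GV14c or MII15c. Of 11 specialised polymerase genes, the primase-polymerase CCDC111 and REV1 rose (1.07 and 0.90), the latter not without GV14, GV15, MII14c or MII15c, while MAD2L2, POLG and POLM fell (-3.96, -3.0 and -2.89) and 6 did not pass.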

How the data were processed

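The authors deposited RPKM per gene for 6 libraries, per the file headers, and a second file with coding coordinates (unit: other). The authors used DESeq, per the submitters' processing notes, in a role not stated there. For the aligner, counter and genome build nothing is given in the sources used here, and coordinates are those of the authors' annotation, counted from 1. Columns were assigned by name. Of these, 2 (GV14c, MII15c) match no sample title and count as libraries of the stage in their name. The samples titled GV15c and MII14 match no column. Whether those columns are these samples under another name is not given. Per the labels, adapters were diluted 30 times for GV14, 10 times for GV15 and 50 times for both matched MII libraries; among these, the dilution cannot be told apart from the stage.

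Rows whose mean over the 6 libraries reached 1 RPKM were tested with limma 3.58.1 (R 4.3.3; lmFit, eBayes with trend) on log2(RPKM + 1), with Benjamini-Hochberg adjustment over all 8671 rows and a threshold of 0.05. Changes are on that scale and understate those of low genes. The fit was tested on simulated data. RPKM are not counts, so no count model was run. Depth is the read number that makes RPKM times length whole (within 0.1 of a read) for 98.5% to 100% of low values of coding-only gene models; at a model of 2 kb, 1 RPKM is 40.4 to 65.1 reads. Without molecular identifiers, reads do not equal molecules.

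Members and lists were chosen with earlier results of these data known. Every member is accounted for, those that passed with each library's value. Of each list up to 3 rows of smallest p per direction are named. ATAD5, CHTF8, RAD17, TIMELESS, the less abundant CUL1 row and the RFC1 and MCM9 rows are named in addition, after values were seen. Rows of one symbol are kept apart. Alternatives were pseudocount, filter, scaling, weights, trend, the number or letter in the column name as a term, and each library left out.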

Additional observations from a re-analysis of the deposited data

How the results depend on the processing

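Of the 18 called members 11 kept their call under all 18 alternatives, and no called member changed direction. The count of higher members, 7 as reported, became 11 with quantile normalization, 15 with library weights and 4 without the 2 columns that match no title. The count of lower members, 11 as reported, became 7 with no filter on low values and 7 without those 2 columns. With 1 library left out, higher members numbered 5 to 10 and lower members 9 to 11. The numbers 14 and 15 are not stated to pair libraries, and deviations from the stage mean correlated at 0.427 for GV15 with MII15, at 0.33 for GV14c with MII14c, at -0.00826 for GV14 with MII14c and at -0.226 for GV15 with MII15c. Pairs of unlike number ran from -0.409 for GV14c with MII15 to 0.261 for GV14c with MII15c. With the replicate block on the numbers 14 and 15, 7 members were higher and 11 lower. Median-ratio, quantile and TPM scaling gave median log2 changes of 0.01, 0.22 and -0.05 for all tested genes (-0.16 as deposited) and 0.42, 0.44 and 0.35 for members (0.21). Lower members made up 61.1% of member calls as deposited and 50% after quantile normalization (66.7% and 46.4% over all genes).

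Among members not called, direction changed for ORC1 (log2 change 0.11 with quantile normalization, 0.25 with library weights, -0.61 to 0.29 with 1 library left out), GINS4 (0.17) and FEN1 (0.020) with quantile normalization, POLD3 (-0.056 to 0.42 with 1 library left out, -0.065 in the fit with the letter c) and RPA2 (-0.25 with library weights, -0.099 to 0.67 with 1 library left out). The causes were not tested. Rows with a mean under 1 RPKM, such as CDT1, POLD1 and POLE, were left out by the filter, so their stages were not tested as reported.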
